A study of Homo sapiens with 15 samples.

Results

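MHC class I molecules and the machinery that loads them with peptide were followed through 9 genes in senescent human cells in which THBD, the gene of thrombomodulin, was targeted by short hairpin RNA. The genes were the heavy chains HLA-B, HLA-C, HLA-E and HLA-F, the light chain B2M, the peptide transporter subunits TAP1 and TAP2, the loading factor TAPBP and the transactivator NLRC5. They were chosen by function and taken by symbol from the 2 gene count tables of the series, where they were 9 of the 38760 symbols that both tables list. In cells that were made senescent, the series asked whether THBD is necessary for that state. RNA-seq was run on 15 libraries of cultured cells, 9 of IMR90 and 6 of Huh7. IMR90 is a fibroblast line from human lung, and its treatment label gives senescence induced by HRAS G12V, although the growth protocol also speaks of replicative senescence through long passage. Huh7 is a line from a human hepatocyte-derived carcinoma, made senescent with palbociclib, an inhibitor of the cell cycle kinases CDK4 and CDK6.

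The IMR90 libraries were 3 with a non-targeting hairpin (control) and 6 labelled shTHBD, which the titles divide into set 1 (3 libraries) and set 2 (3 libraries) without saying what the set number stands for. The Huh7 libraries were 3 with a non-targeting hairpin (control) and 3 with the THBD hairpin numbered 53925 in their titles. All IMR90 groups share the HRAS treatment and both Huh7 groups share palbociclib, so neither line has a group without senescence induction here. Libraries held 18256773 to 21509229 counted fragments in IMR90, 19328182 to 20020683 in the Huh7 control and 22479132 to 25236178 in Huh7 shTHBD. The label was checked on THBD itself. THBD counts were 315, 351 and 430 in the IMR90 control, 719, 732 and 763 in libraries labelled set 1, and 199, 220 and 209 in set 2. THBD thus stood 2.12-fold over the control in those labelled set 1, which goes against the label, and 1.76-fold under it in set 2. In Huh7 it had at most 6 counts in a library, so a knockdown was not detectable there. One set 2 library, replicate 3, is described as Huh7 in 1 label and as IMR-90 in its others, and values without it are given where it mattered.

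Class I molecules display peptides from inside the cell to CD8 T cells. A heavy chain pairs with beta-2 microglobulin in the endoplasmic reticulum, where the TAP1-TAP2 transporter delivers peptides cut by the proteasome and tapasin, the product of TAPBP, holds the empty molecule at the transporter until a fitting peptide binds. HLA-B and HLA-C present peptides to T cells and are also read by receptors of natural killer cells, while HLA-E presents mainly signal peptides of other class I molecules to the receptor NKG2A. NLRC5 is drawn to class I promoters by the factors bound there and raises transcription of the heavy chains, B2M, TAP1 and the proteasome gene PSMB9, and interferons raise most of these genes, in part through IRF1.

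RefSeq promoter windows (GRCh38.p14, 250 bases before to 50 after the start) were found for 7 of the 9 members, all but HLA-E and NLRC5. The 200 bases before the start are shown for the pair of heavy chains that fell furthest, for the light chain that did not fall with them, and for the transporter subunits that parted. Each runs 5′ to 3′ on the gene's strand. Capitals mark every match, on either strand, to the CCAAT box (CCAAT), the core of the cyclic AMP element that forms part of the class I X box (TGACG), 2 forms of the element read by interferon regulatory factors (GAANNGAAA, and the longer core of the interferon-stimulated response element, GAAA before and after any 2 bases), and the NF-kB consensus.
HLA-B: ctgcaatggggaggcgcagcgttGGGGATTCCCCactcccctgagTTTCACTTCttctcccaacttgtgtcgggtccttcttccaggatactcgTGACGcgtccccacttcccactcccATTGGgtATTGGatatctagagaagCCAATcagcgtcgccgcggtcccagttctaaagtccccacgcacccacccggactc
HLA-C: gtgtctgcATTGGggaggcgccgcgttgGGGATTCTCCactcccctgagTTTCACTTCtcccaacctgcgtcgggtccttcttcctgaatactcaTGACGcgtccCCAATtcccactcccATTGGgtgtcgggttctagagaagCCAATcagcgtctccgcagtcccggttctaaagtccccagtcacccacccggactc
B2M: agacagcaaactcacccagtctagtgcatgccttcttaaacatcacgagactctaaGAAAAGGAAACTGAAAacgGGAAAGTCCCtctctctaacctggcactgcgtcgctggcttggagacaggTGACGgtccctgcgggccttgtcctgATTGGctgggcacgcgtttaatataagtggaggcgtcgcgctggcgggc
TAP1: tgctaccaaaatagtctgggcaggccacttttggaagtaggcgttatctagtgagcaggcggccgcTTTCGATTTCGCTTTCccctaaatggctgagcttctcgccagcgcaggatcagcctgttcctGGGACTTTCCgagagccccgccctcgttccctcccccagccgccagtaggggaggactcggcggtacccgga
TAP2: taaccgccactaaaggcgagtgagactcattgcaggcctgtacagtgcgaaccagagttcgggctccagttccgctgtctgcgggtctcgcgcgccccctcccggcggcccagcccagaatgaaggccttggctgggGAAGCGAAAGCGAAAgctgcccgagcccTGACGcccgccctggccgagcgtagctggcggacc
HLA-B lies on the minus strand of chromosome 6 (window shown chr6:31357180-31357379) and HLA-C likewise (chr6:31272093-31272292). B2M is on the plus strand of chromosome 15 (chr15:44711317-44711516), and TAP1 (chr6:32853705-32853904) and TAP2 (chr6:32838740-32838939) are on the minus strand of chromosome 6. The HLA-B and HLA-C stretches were 87.7% identical after alignment. Both hold the shorter interferon element, starting 155 bases upstream in HLA-B and 151 in HLA-C, a TGACG core at 106 and 105 bases, and a CCAAT box at 56 bases. B2M holds a pair of overlapping matches to the longer form (144 and 138 bases upstream), and so does TAP1 (134 and 128 bases). Like HLA-B and HLA-C, B2M also holds a TGACG core (75 bases) and a CCAAT box (49 bases, on the other strand). TAP2 holds the shorter and the longer form in overlap (63 and 58 bases) and a TGACG core at 35 bases. Of all 35116 RefSeq windows of 300 bases, 34.6% hold CCAAT, 24.6% TGACG, 7.66% GAANNGAAA, 3.57% the longer form and 11.3% the NF-kB consensus. The motifs were chosen after these windows had been read, and a match describes letters, not a bound site.

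Since class I genes share sequence, their separability was measured first. Of the 50-base words in the longest GENCODE 29 coding transcript of each gene, 2% of those of HLA-B also occurred in HLA-C, and 1.99% of those of HLA-C in HLA-B. Words found in a transcript of any other gene made up 2.54% for HLA-B, 6.71% for HLA-C, 5.13% for HLA-E and 1.7% for HLA-F. For TAP2 this share was 35.8%, and 32.2% of its exon bases in the count tables lie under a second gene on the same strand, which had at most 1 count. Fragments there are left out under the counter's default, so TAP2 levels per length are too low by an unmeasured amount. The IMR90 counts took no account of strand, and for Huh7 this is not given, so the 18% of HLA-B exon bases (17.8% in the Huh7 table) and the 12.4% of TAP1 exon bases (12% in the Huh7 table) that face an antisense gene are uncertain too. The annotated exons of HLA-B also differ between the tables. In the Huh7 table they reach to position 31269491, inside the span of HLA-C, and share 35 bases with HLA-C on the same strand. In the IMR90 table they reach only to 31353872, without that overlap. The reference carries 1 allele of each heavy chain. How far the alleles of these lines lowered the counts of HLA-B and HLA-C was not tested, but each line is compared only with its own control.

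Levels between genes are given as counts per 1000000 counted fragments (CPM) and per kilobase of exon. Exon length is that of all annotated exons of a gene merged, which can exceed that of a transcript. In the IMR90 table it was 5455 bases for B2M and 3012 for HLA-B. Their longest coding transcripts had 1705 and 1547 bases, so the order between genes depends on the length used. By CPM alone, B2M (mean 802) stood above HLA-B (663) in the IMR90 control. In the IMR90 control the order was HLA-B (220.1 ± 4.21, SD, n = 3), HLA-C (165 ± 3.18), B2M (147 ± 2.10), HLA-E (119 ± 2.79), TAPBP (45.0 ± 1.42), TAP1 (11.6 ± 0.650), TAP2 (4.69 ± 0.259) and NLRC5 (2.15 ± 0.138), with no overlap between neighbours. In set 2, B2M (198 ± 2.88) stood first, ahead of HLA-E (103 ± 1.98), HLA-B (89.2 ± 1.62), TAPBP (62.3 ± 1.13), HLA-C (29.6 ± 1.45) and TAP1 (21.2 ± 0.496). The Huh7 control, whose table was scaled on its own, had B2M (159 ± 4.71) first and HLA-C (90.2 ± 6.66) as its most abundant heavy chain of the 4, with HLA-B at 7.84 ± 0.199. In Huh7 shTHBD the level per kilobase of HLA-B (1.69 ± 0.469) and that of NLRC5 (1.28 ± 0.0467) lay within 1 SD of each other, although NLRC5 had been far below HLA-B in the control (0.257 ± 0.0237). HLA-F, a heavy chain expressed mostly in immune cells, had 2 to 18 counts in IMR90 libraries and 0 to 6 in Huh7, and little can be read from it.

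**Figure D1:**
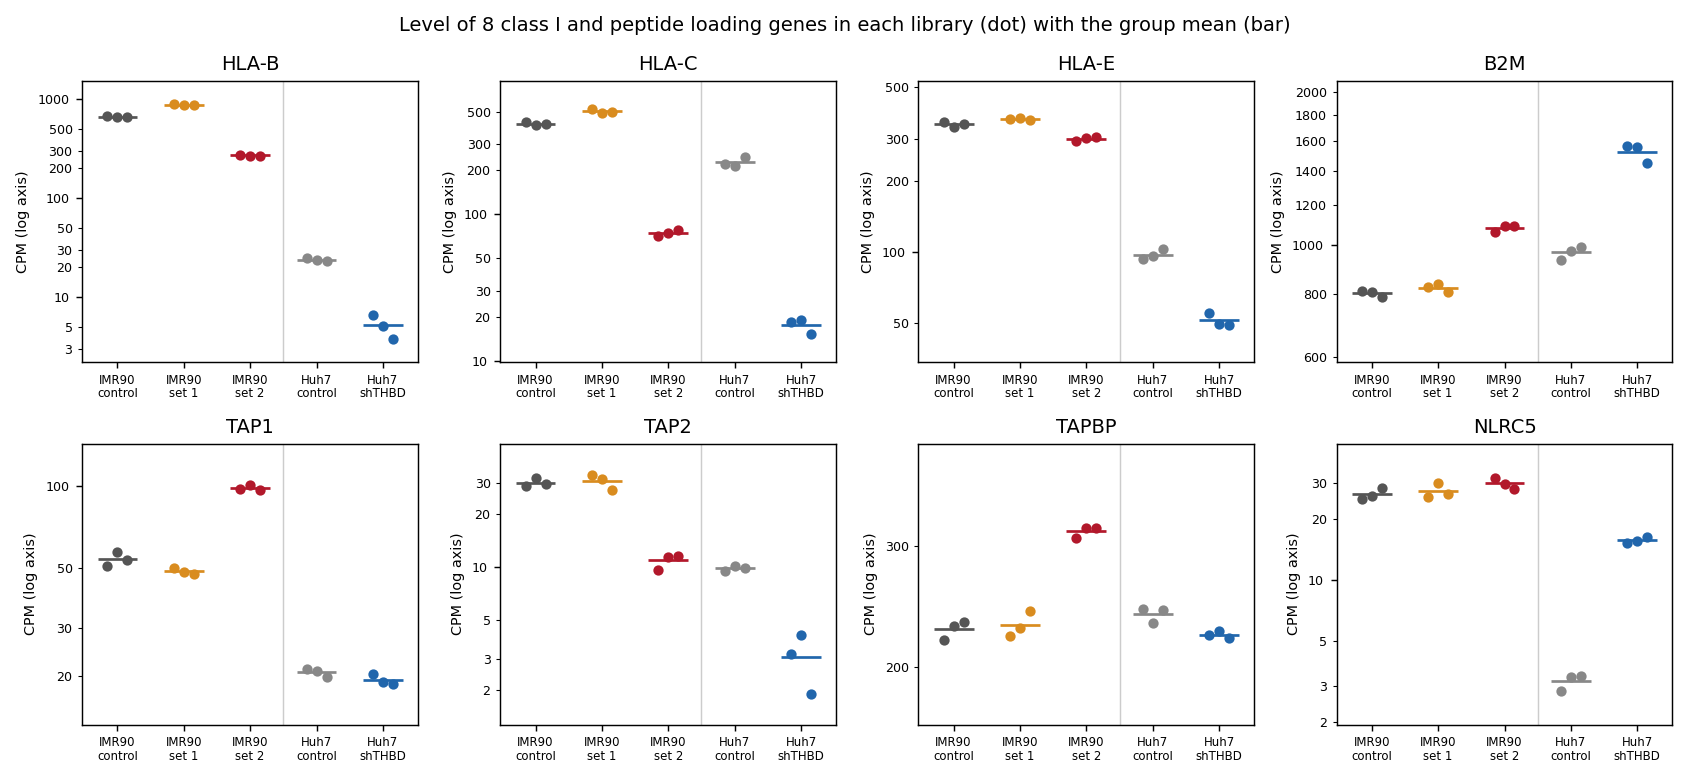
CPM on log axes for 8 members in each of the 15 libraries (dots), with the mean of each group (bar); HLA-F is left out for its low counts. HLA-B, HLA-C and TAP2 sit lower in IMR90 set 2 and in Huh7 shTHBD than in their controls, B2M sits higher in both, TAP1 is high in set 2 alone and NLRC5 differs in Huh7.

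HLA-B and HLA-C, the classical heavy chains among the members, were lower in set 2 and in Huh7 shTHBD and higher in libraries labelled set 1. HLA-B stood at 676, 650.2 and 663 CPM in the IMR90 control, 888, 869 and 873 CPM in libraries labelled set 1, and 274, 268 and 265 CPM in set 2. The 3 groups did not overlap: every library labelled set 1 was above every control, and every set 2 library below. By edgeR's quasi-likelihood test with Benjamini-Hochberg adjustment, used for all fold changes here, HLA-B fell 2.61-fold in set 2 (log2 fold change −1.39 ± 0.0238, approximate SE, adjusted p = 2.6e-57) and rose 1.37-fold in libraries labelled set 1 (0.46 ± 0.0222, adjusted p = 3.6e-29). In Huh7, HLA-B was at 24.5, 23.9 and 23.3 CPM in the control and 6.64, 5.07 and 3.78 CPM in shTHBD. Again no shTHBD library reached the control, and the fall was 4.72-fold (−2.24 ± 0.146, adjusted p = 1.1e-14). The fold changes use trimmed-mean scaling, so they differ slightly from ratios of CPM.

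HLA-C fell further than HLA-B in both lines. Its levels were 423, 408 and 410.0 CPM in the IMR90 control, 523, 491 and 501 CPM in libraries labelled set 1 and 70.4, 74.7 and 77.6 CPM in set 2. The groups again did not overlap, with set 2 lowest, and the fall in set 2 was 5.90-fold (−2.56 ± 0.0321, adjusted p = 4.2e-66). In the libraries labelled set 1 HLA-C rose 1.27-fold (0.34 ± 0.0267, adjusted p = 1.3e-18). Huh7 held 219.5, 214 and 245 CPM in the control and 18.3, 19 and 15.2 CPM in shTHBD. That fall, 13.15-fold (−3.72 ± 0.0784, adjusted p = 1.7e-27), left the 3 shTHBD libraries close together and far under the control. With this unequal fall the ratio of HLA-B to HLA-C, in counts per exon base, went from a mean of 1.33 in the IMR90 control to 3.02 in set 2, and from 0.0873 to 0.240 in Huh7. Each ratio test here is an exact permutation test, two-sided, and where groups did not overlap p was 0.1, the smallest that 3 libraries against 3 allow (0.105 adjusted over the 20 ratio tests made), so no ratio could pass 0.05.

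HLA-E, the ligand of NKG2A, fell too, but less. It was at 354, 338 and 348 CPM in the IMR90 control, 363, 367 and 361 CPM in libraries labelled set 1 and 294, 304 and 305 CPM in set 2. All set 2 libraries were below all controls (−0.29 ± 0.0263, adjusted p = 7.6e-16), and all libraries labelled set 1 were above them (0.12 ± 0.0260, adjusted p = 3.2e-05). In Huh7 it dropped from 93.4, 95.6 and 103 CPM to 55.3, 49.7 and 49.2 CPM, without overlap (1.93-fold, −0.95 ± 0.0710, adjusted p = 3.1e-13). HLA-B and HLA-C fell more, so HLA-E made up a greater proportion. Per exon base, HLA-E was 0.308 ± 0.00218 of HLA-B and HLA-C together in the IMR90 control, 0.253 ± 0.00630 in libraries labelled set 1 and 0.867 ± 0.0182 in set 2. In Huh7 it went from 0.340 ± 0.00967 to 2.05 ± 0.241, so that it outnumbered their sum in every shTHBD library (1.99, 1.84 and 2.31). HLA-F was not called in either set against control and was not tested in Huh7. It was 1.60 ± 0.584 log2 units higher in libraries labelled set 1 than in set 2 (adjusted p = 0.0125), a call lost without any 1 of 3 libraries (adjusted p 0.0978 without set 1 replicate 2, 0.0831 without set 2 replicate 1 and 0.0807 without set 2 replicate 2). Without set 2 replicate 3, HLA-F was called lower in set 2 (−2.01, adjusted p = 0.0289).

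B2M, the light chain that every class I heavy chain needs, moved against HLA-B, HLA-C and HLA-E in set 2 and in Huh7. It was at 811, 806 and 789 CPM in the IMR90 control, 825, 835 and 807 CPM in libraries labelled set 1 and 1060.1, 1088 and 1087 CPM in set 2. Set 2 lay above all other IMR90 libraries (0.34 ± 0.0209, adjusted p = 2.3e-24), whereas the libraries labelled set 1 overlapped the control and their rise was small (0.09 ± 0.0210, adjusted p = 1.5e-04). In Huh7, B2M rose from 934, 972 and 989.7 CPM to 1565, 1556 and 1449 CPM, 1.55-fold without overlap (0.63 ± 0.0488, adjusted p = 7.5e-13). Summed per exon base, the 4 heavy chains amounted to 3.43 ± 0.0701 per B2M in the IMR90 control, 4.10 ± 0.0943 in libraries labelled set 1 and 1.12 ± 0.00749 in set 2. In Huh7 they went from 0.828 ± 0.0390 to 0.105 ± 0.00503, 0.127 times the control value. The size of these ratios depends on the merged exon lengths used. In none of these ratio comparisons did groups overlap (exact p = 0.1). Counting the 4 heavy chains as 1 feature, which removes any misassignment among them, gave a fall of 2.34-fold in set 2 (−1.23 ± 0.0201, adjusted p = 1.4e-58), a fall of 4.78-fold in Huh7 (−2.26 ± 0.0637, adjusted p = 5.3e-24) and a rise of 1.27-fold in libraries labelled set 1 (0.35 ± 0.0194, adjusted p = 5.3e-26).

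**Figure D2:**
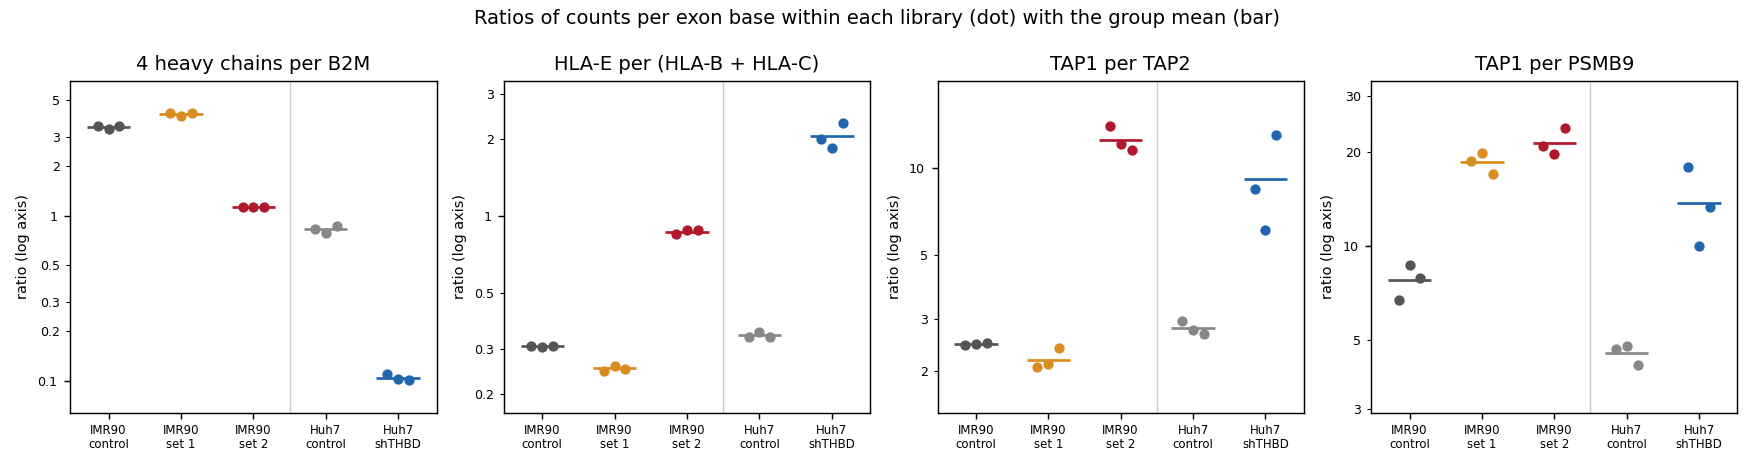
Ratios of counts per exon base on log axes in each of the 15 libraries (dots), with the group mean (bar). Heavy chains per B2M drop from 3.43 to 1.12 in IMR90 set 2 and from 0.828 to 0.105 in Huh7, while TAP1 per TAP2 goes from 2.46 to 12.5 and from 2.80 to 9.15.

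The transporter subunits, which work only as a pair, parted in set 2. TAP1 was at 50.9, 56.9 and 53.2 CPM in the IMR90 control, 49.7, 48.1 and 47.5 CPM in libraries labelled set 1 and 97.7, 101 and 96.8 CPM in set 2. Set 2 stood clear above the others (1.73-fold, 0.79 ± 0.0466, adjusted p = 4.0e-25), and the libraries labelled set 1, all below the control, missed the threshold (−0.09 ± 0.0503, adjusted p = 0.113). TAP1 in libraries labelled set 1 was called lower with upper-quartile scaling (−0.13, adjusted p = 0.0301) and without control replicate 1 (−0.13, adjusted p = 0.0439). TAP2 was at 28.7, 31.8 and 29.3 CPM in the control, 33.2, 31.5 and 27.3 CPM in libraries labelled set 1, which spanned the control, and 9.64, 11.4 and 11.5 CPM in set 2. It fell 2.91-fold in set 2 (−1.54 ± 0.0873, adjusted p = 5.5e-26), with no set 2 library near a control. In the libraries labelled set 1 its log2 difference from control was 0.09 ± 0.0749 (95% interval −0.06 to 0.24, adjusted p = 0.325).

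In Huh7, TAP2 fell as well and TAP1 was not called. TAP2 went from 9.50, 10.1 and 9.83 CPM to 3.20, 4.12 and 1.91 CPM (3.24-fold, −1.69 ± 0.203, adjusted p = 1.3e-08), with replicate 3 of shTHBD the lowest and no overlap. TAP1 was at 21.2, 20.9 and 19.8 CPM in the control and 20.3, 18.9 and 18.7 CPM in shTHBD, groups that overlapped, and its log2 difference of −0.13 had a 95% interval of −0.34 to 0.08 (adjusted p = 0.318). TAP1 per TAP2 was therefore higher in both lines. It went from 2.46 ± 0.0251 to 12.5 ± 1.25 in set 2 and from 2.80 ± 0.154 to 9.15 ± 3.50 in Huh7, and was 2.18 ± 0.183 in libraries labelled set 1, without overlap with the control in each case (exact p = 0.1).

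TAPBP encodes tapasin, which bridges the empty heavy chain to the transporter. It was at 219, 229.9 and 233 CPM in the IMR90 control, 222, 228 and 241 CPM in libraries labelled set 1 and 308, 318 and 318 CPM in set 2. Set 2 was above every other library (1.31-fold, 0.39 ± 0.0295, adjusted p = 2.5e-19). The libraries labelled set 1 overlapped the control, and their call (0.08 ± 0.0301, adjusted p = 0.0296) was lost with upper-quartile scaling (adjusted p = 0.229), with no filter on low counts (0.0808), without control replicate 1 (0.257) and without set 1 replicate 3 (0.332). In Huh7, TAPBP was at 243, 232 and 242 CPM in the control and 223, 226 and 220.4 CPM in shTHBD, all below the control, and missed the threshold (−0.13 ± 0.0557, adjusted p = 0.0567). It was called lower there with voom (adjusted p = 0.0439), without control replicate 2 (0.0368) and without shTHBD replicate 3 (0.0236).

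NLRC5, the transactivator of class I genes, went the other way from the heavy chains in Huh7. It was at 2.85, 3.35 and 3.36 CPM in the Huh7 control and 15.3, 15.7 and 16.4 CPM in shTHBD. The shTHBD libraries were tight and far above the control (4.86-fold, 2.28 ± 0.158, adjusted p = 5.1e-14). In IMR90 it was at 25.2, 26.0 and 28.5 CPM in the control, 25.8, 30.3 and 26.7 CPM in libraries labelled set 1 and 32.1, 29.9 and 28.1 CPM in set 2, and the groups overlapped. Its log2 differences from control were 0.11 (95% interval −0.04 to 0.25, adjusted p = 0.213) and 0.09 (−0.05 to 0.24, adjusted p = 0.262). The second was called with upper-quartile scaling (0.16, adjusted p = 0.0478).

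**Figure D3:**
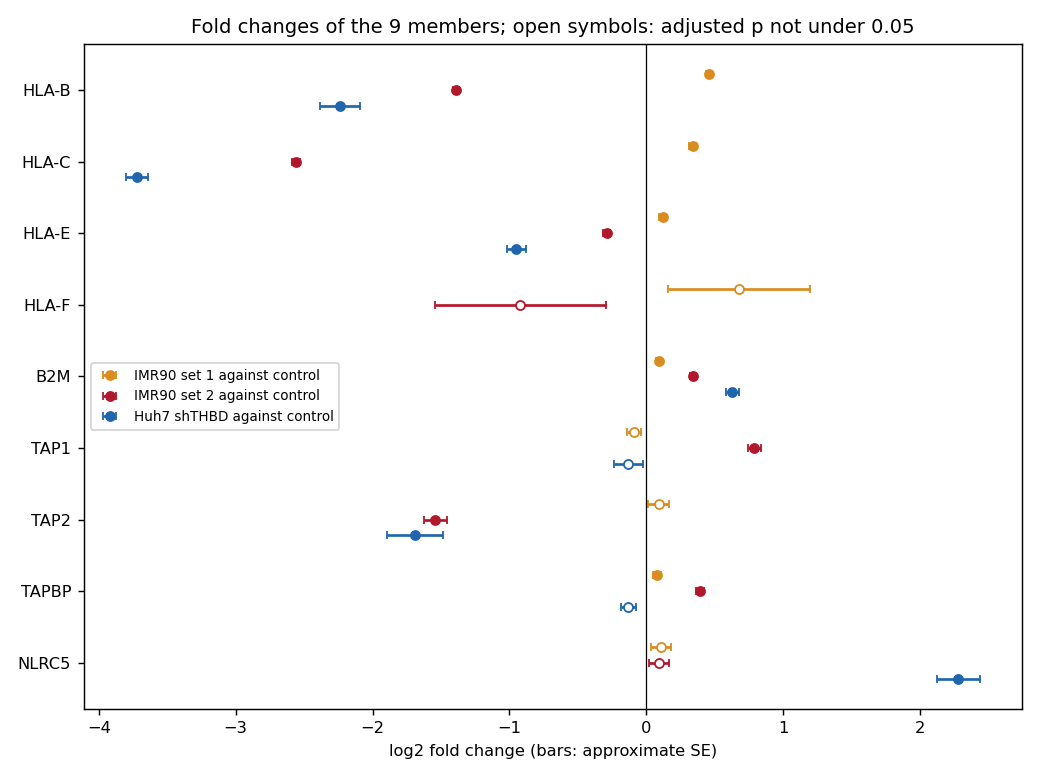
Log2 fold change against control of the 9 members (points) with the approximate SE (bars) for the libraries labelled set 1, for set 2 and for Huh7 shTHBD; open points did not pass adjusted p under 0.05, and HLA-F was not tested in Huh7. HLA-B and HLA-C lie left of 0 in set 2 (−1.39 and −2.56) and in Huh7 (−2.24 and −3.72) and right of it in libraries labelled set 1 (0.46 and 0.34), and NLRC5 stands at 2.28 in Huh7.

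Counted over the list, 3 of 9 members rose and 4 fell in set 2 (called at an adjusted p under 0.05), where 33.2% of the 15411 genes tested were called higher and 34.1% lower. With the libraries labelled set 1, 5 of 9 rose and the 4 others were not called (adjusted p from 0.113 to 0.325, TAP1 being the negative value among them), against 27.3% of all genes higher and 26.5% lower. In Huh7, 2 of 8 tested members rose and 4 fell, beside 25.9% higher and 27.3% lower among 17474 genes. Shares of 33.3% higher and 44.4% lower in set 2, and of 25% and 50% in Huh7, over so few genes do not set the members apart from the background, and the 55.6% higher with the libraries labelled set 1 rest on 5 genes. The median log2 fold change of the members was 0.11 in libraries labelled set 1, −0.29 in set 2 and −0.54 in Huh7, and that of all genes tested was −0.00, 0.01 and 0.00. Between the sets, 5 of 9 members were higher in libraries labelled set 1 and 3 were lower, where 33.9% and 35.6% of all genes were. HLA-C differed most between the sets (2.90 ± 0.0319, adjusted p = 7.4e-70), followed by HLA-B (1.84 ± 0.0237, adjusted p = 2.0e-65), TAP2 (1.63 ± 0.0871, adjusted p = 2.0e-27) and HLA-F, and TAP1 differed in the other direction (−0.89 ± 0.0473, adjusted p = 1.9e-27). Both sets were compared with the same 3 control libraries.

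Set 2 and Huh7 share no library. Of the 8 members tested in both, 5 were called in the same direction (HLA-B, HLA-C, HLA-E and TAP2 lower, B2M higher) and none in opposite directions, where 35.0% of the 12782 genes tested in both were called in the same direction and 1401 of them in opposite ones. The size of the change differed between the lines for 7 of 9 members in the joint fit, in which 44.0% of 16861 genes differed. Subtracting the Huh7 effect from the set 2 effect gave 1.13 ± 0.0780 for HLA-C (adjusted p = 4.3e-15), 0.82 ± 0.102 for HLA-B (1.5e-08) and 0.63 ± 0.0627 for HLA-E (6.4e-11), so each of these fell further in Huh7. The rise of B2M was also the greater in Huh7 (−0.31 ± 0.0462, adjusted p = 4.3e-07). TAP1 (0.89 ± 0.0950, adjusted p = 3.7e-10) and TAPBP (0.48 ± 0.0581, adjusted p = 6.4e-09) were higher in the set 2 effect, and NLRC5 lower (−2.21 ± 0.155, adjusted p = 6.3e-15). For TAP2 the difference was 0.12, with a 95% interval of −0.27 to 0.50 (adjusted p = 0.696). Without set 2 replicate 3, whose labels conflict, all 7 were still called, and the falls of HLA-B and HLA-C in set 2 were −1.38 and −2.60.

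Most genes that supply peptides were lower in each comparison with control. PSMB8, PSMB9 and PSMB10 are the catalytic subunits of the immunoproteasome, PSME1 and PSME2 form its activator, and ERAP1 and ERAP2 trim peptides in the endoplasmic reticulum. Of these 7 genes, 6 fell in libraries labelled set 1 (median log2 fold change −0.41), 6 fell and 1 rose in set 2 (−0.66), and 7 fell in Huh7 (−1.21). These are 85.7%, 85.7% and 100% of the list, beside 26.5%, 34.1% and 27.3% of all genes called lower, and no test of the list was made. PSMB10 was at 10.9, 7.65 and 7.95 CPM in the IMR90 control and 2.95, 1.99 and 2.61 CPM in set 2 (−1.89 ± 0.167, adjusted p = 1.5e-16), and at 6.35, 8.79 and 8.28 CPM against 2.32, 3.09 and 3.07 CPM in Huh7 (−1.49 ± 0.206, adjusted p = 2.0e-07). No shTHBD library of set 2 or of Huh7 reached its control. PSME2 was the exception in set 2, where it rose (0.17 ± 0.0404, adjusted p = 1.8e-04), and ERAP2 in libraries labelled set 1, where it was not called (−0.11 ± 0.0545, adjusted p = 0.0786). ERAP1 fell by 1.07 in set 2 and by 0.24 in Huh7 on the log2 scale (adjusted p = 8.0e-20 and 0.00112).

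PSMB9 starts 488 bases from TAP1 on the opposite strand, so the pair share an upstream region, yet their levels parted. PSMB9 was at 5.45, 4.71 and 4.84 CPM in the IMR90 control, 1.92, 1.75 and 2.01 CPM in libraries labelled set 1 and 3.37, 3.71 and 2.94 CPM in set 2. Both sets lay below the control (−1.34 ± 0.198, adjusted p = 2.0e-08, and −0.66 ± 0.182, adjusted p = 0.00104), while TAP1 rose in set 2. In Huh7, PSMB9 went from 3.15, 3.05 and 3.31 CPM to 0.788, 1.31 and 0.979 CPM (−1.65 ± 0.327, adjusted p = 6.6e-05). TAP1 per PSMB9, in counts per exon base, went from 7.77 ± 0.990 in the control to 18.5 ± 1.38 in libraries labelled set 1 and 21.4 ± 2.08 in set 2, and from 4.53 ± 0.338 to 13.7 ± 3.93 in Huh7 (exact p = 0.1 each, no overlap with the control). Between the sets the ratios overlapped (exact p = 0.20).

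The general chaperones CALR, CANX and PDIA3 changed little and not alike in the lines. CALR, CANX and PDIA3 encode calreticulin, calnexin and ERp57, and TAPBPL encodes the tapasin-related editor TAPBPR. All 4 fell in set 2 (median −0.28), whereas CALR, CANX and PDIA3 rose in Huh7 by 0.12, 0.19 and 0.17 log2 units (adjusted p = 0.0440, 0.00465 and 0.00850) and TAPBPL fell by 1.26 (adjusted p = 3.1e-04). In the libraries labelled set 1, CALR and CANX fell, PDIA3 rose and TAPBPL was not called. TAPBPL, like TAP2, was lower in both lines. Of all genes, 26.5% were called lower in libraries labelled set 1, 34.1% in set 2 and 27.3% in Huh7. Those called higher were 27.3%, 33.2% and 25.9%, and a list of 4 genes is too short to set apart from these shares.

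**Figure D4:**
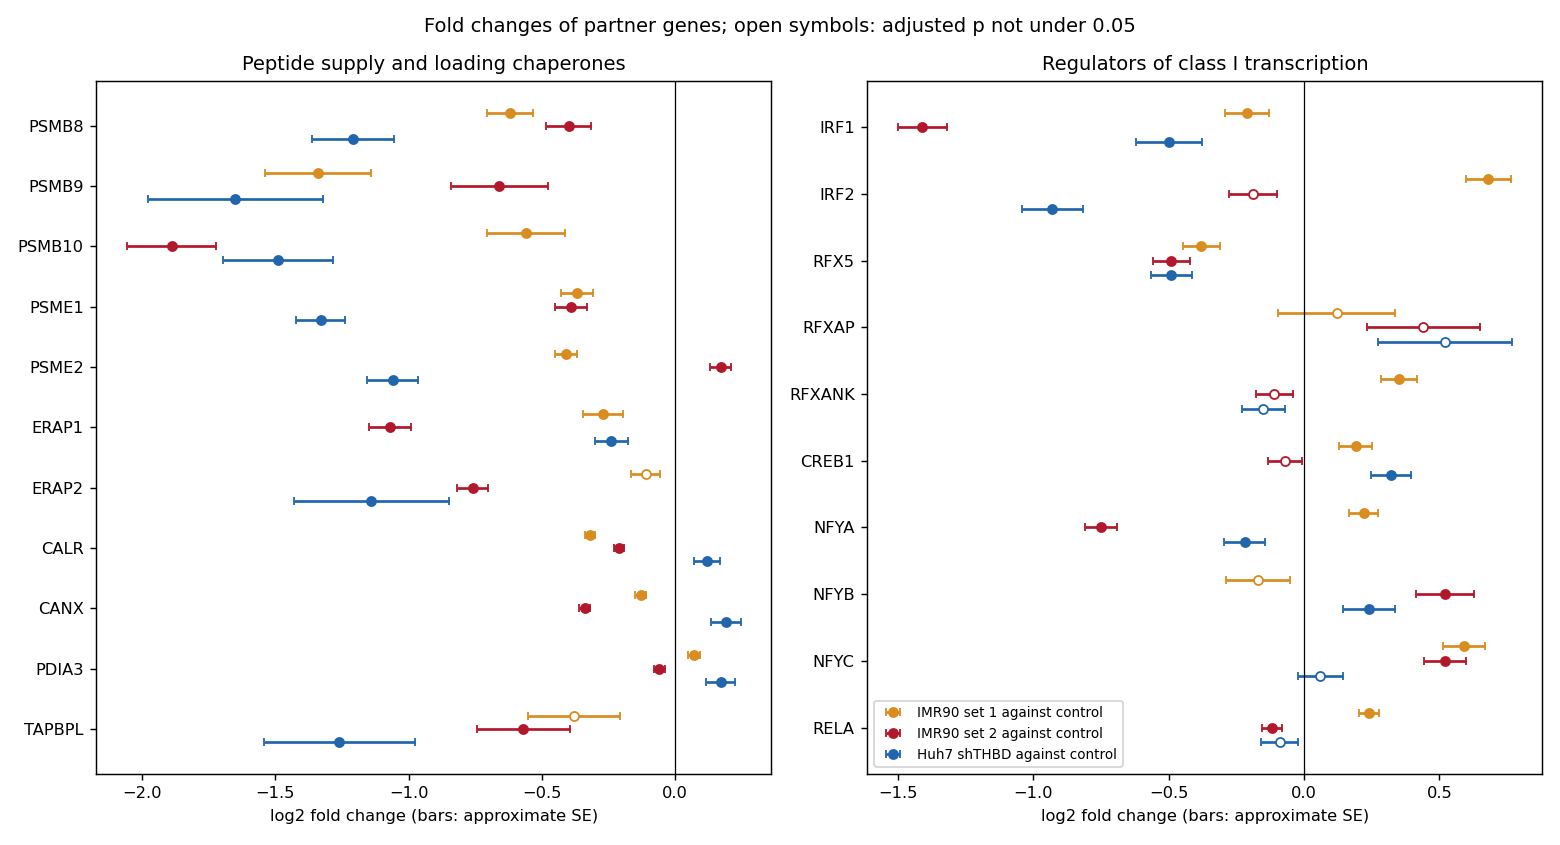
Log2 fold change against control (points) with the approximate SE (bars) of 7 peptide supply genes and of CALR, CANX, PDIA3 and TAPBPL (left) and of 10 regulators of class I transcription (right). The libraries labelled set 1, set 2 and Huh7 shTHBD are shown, and open points did not pass adjusted p under 0.05. The peptide supply genes lie left of 0 in 20 of 21 cases, PSME2 in set 2 being the other, and among the regulators IRF1 in set 2 is lowest at −1.41.

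Regulators that act at class I promoters were mixed. IRF1, which binds the interferon element, fell by 0.21, 1.41 and 0.50 log2 units in libraries labelled set 1, set 2 and Huh7 (adjusted p = 0.0214, 2.6e-23 and 8.6e-04), and RFX5, a subunit of the X box complex that NLRC5 works through, by 0.38, 0.49 and 0.49 (adjusted p = 2.2e-06, 1.9e-09 and 1.3e-06). NFYA, a subunit of the CCAAT factor, rose in libraries labelled set 1 (0.22 ± 0.0548, adjusted p = 3.6e-04) and fell in set 2 (−0.75 ± 0.0592, adjusted p = 9.4e-19) and Huh7 (−0.22 ± 0.0758, adjusted p = 0.0155). RELA, the NF-kB subunit p65, rose in libraries labelled set 1 (0.24 ± 0.0366, adjusted p = 4.8e-08) and fell in set 2 (−0.12 ± 0.0372, adjusted p = 0.00448). IRF2, which binds the same element as IRF1, rose in libraries labelled set 1 (0.68 ± 0.0827, adjusted p = 6.2e-11) and fell in Huh7 (−0.93 ± 0.113, adjusted p = 1.7e-08), and in set 2 it was not called (−0.19 ± 0.0887, adjusted p = 0.0591). Of the 10 regulators, 6 rose and 2 fell in libraries labelled set 1, 2 rose and 4 fell in set 2, and 2 rose and 4 fell in Huh7, with medians of 0.21, −0.11 and −0.12. The shares called lower were 20%, 40% and 40%, beside 26.5%, 34.1% and 27.3% of all genes. Those called higher were 60%, 20% and 20%, beside 27.3%, 33.2% and 25.9% of all genes.

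Of 13 interferons, receptors and signalling genes, 10 were tested in IMR90 and 9 in Huh7. IFNB1, IFNG and IFNL1 were not tested in either line for low counts. The libraries labelled set 1 had 3 higher and 3 lower, set 2 had 4 higher and 2 lower, and Huh7 had 3 higher and 5 lower. The lower shares were 30%, 20% and 55.6%, and 26.5%, 34.1% and 27.3% of all genes were lower. The higher shares were 30%, 40% and 33.3%, and 27.3%, 33.2% and 25.9% of all genes were higher. TYK2, a kinase of the type I interferon receptor, fell in set 2 (−1.04 ± 0.0419, adjusted p = 3.2e-34) and in Huh7 (−1.20 ± 0.0703, adjusted p = 7.1e-16), while JAK1 rose in both (0.23 ± 0.0294, adjusted p = 2.1e-10, and 0.55 ± 0.0562, adjusted p = 5.3e-10). Of other interferon-stimulated genes, 2 rose and 14 fell among 21 in libraries labelled set 1, 4 rose and 8 fell among 21 in set 2, and 1 rose and 16 fell among 23 in Huh7. The shares that fell were 66.7%, 38.1% and 69.6%, beside 26.5%, 34.1% and 27.3% of all genes, so in set 2 the share lay near that of all genes. OAS3, an antiviral sensor of double-stranded RNA, fell in set 2 (−2.34 ± 0.197, adjusted p = 1.7e-17) and Huh7 (−2.44 ± 0.0908, adjusted p = 5.8e-21). GBP2, a guanylate-binding protein, was at 6.44, 7.39 and 5.72 CPM in the IMR90 control, 1.75, 1.90 and 1.57 CPM in libraries labelled set 1 and 56.3, 56.4 and 57.9 CPM in set 2, and rose in Huh7 from 53.2, 54.2 and 51.1 CPM to 149.9, 145 and 145 CPM. GBP2 thus rose where HLA-B fell and fell where HLA-B rose (1.45 ± 0.0658 in Huh7, adjusted p = 1.0e-18, and 3.05 ± 0.0878 and −1.84 ± 0.156 in set 2 and the libraries labelled set 1, adjusted p = 3.9e-43 and 7.7e-17). It was the 1 gene of this list called higher in Huh7, and its relatives did not all move with it. GBP3 fell in Huh7 (−1.63 ± 0.117, adjusted p = 1.2e-13) and rose in libraries labelled set 1 (0.16) and in set 2 (0.24). GBP1 moved like GBP2 in IMR90 (−0.20 in libraries labelled set 1, 2.05 in set 2). In Huh7 its means were 36.8 CPM in the control and 34.1 CPM in shTHBD.

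Most MHC class II genes were at or near 0, with 3 of 11 tested in IMR90 and 6 in Huh7. HLA-DPB1, a class II beta chain, was at 4.40, 4.12 and 4.84 CPM in the IMR90 control, rose in libraries labelled set 1 (0.63 ± 0.157, adjusted p = 4.1e-04) and fell in set 2 (−1.15 ± 0.187, adjusted p = 1.4e-07). HLA-DMA, a subunit of the class II peptide editor, rose in set 2 from 0.786, 1.12 and 1.39 CPM to 2.90, 3.50 and 3.81 CPM (1.53 ± 0.274, adjusted p = 1.2e-06). The 6 tested in Huh7 were not called, with edgeR's adjusted p from 0.0853 to 0.924. Ligands of NKG2D, stress signals that natural killer cells read beside missing class I, were mixed: 4 rose and 1 fell of 5 in libraries labelled set 1, 2 rose and 1 fell of 5 in set 2, and 1 rose and 3 fell of 6 in Huh7. ULBP3 rose in libraries labelled set 1 (1.29 ± 0.0598, adjusted p = 3.1e-30) and fell in set 2 (−1.03 ± 0.0732, adjusted p = 9.0e-21), and MICB rose in set 2 (0.65 ± 0.120, adjusted p = 2.2e-06) and fell in Huh7 (−0.85 ± 0.0999, adjusted p = 8.0e-09). Among other class I genes and pseudogenes, 4 rose and 1 fell of 8 in libraries labelled set 1, 2 rose and 4 fell of 8 in set 2, and 5 fell of 7 in Huh7. Both lists are short, and 26.5%, 34.1% and 27.3% of all genes fell in the 3 comparisons and 27.3%, 33.2% and 25.9% rose. MR1, which presents vitamin B metabolites, rose in set 2 (1.22 ± 0.147, adjusted p = 2.3e-11) and fell in Huh7 (−0.44 ± 0.0953, adjusted p = 2.0e-04).

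HLA-B, HLA-C, HLA-E, HLA-F, TAP1, TAP2 and TAPBP sit in the MHC on chromosome 6, and the genes around them moved in both directions. Between the starts of HLA-F and TAPBP (chromosome 6, 29722775 to 33299694 in the table's GRCh38 positions), 38 of 100 other tested genes rose and 31 fell in set 2, 26 of 100 rose and 29 fell in libraries labelled set 1, and 20 of 115 rose and 39 fell in Huh7. Among all genes 33.2% were called higher and 34.1% lower in set 2, and 27.3% and 26.5% in libraries labelled set 1. In Huh7 the neighbours were 17.4% higher and 33.9% lower, beside 25.9% and 27.3% of all genes. The medians were 0.10, −0.02 and −0.24 in set 2, the libraries labelled set 1 and Huh7, against 0.01, −0.00 and 0.00 for all genes. Within 15 kb of the TAP1 start, TAP1 rose in set 2 while TAP2, PSMB8 and PSMB9 fell.

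**Figure D5:**
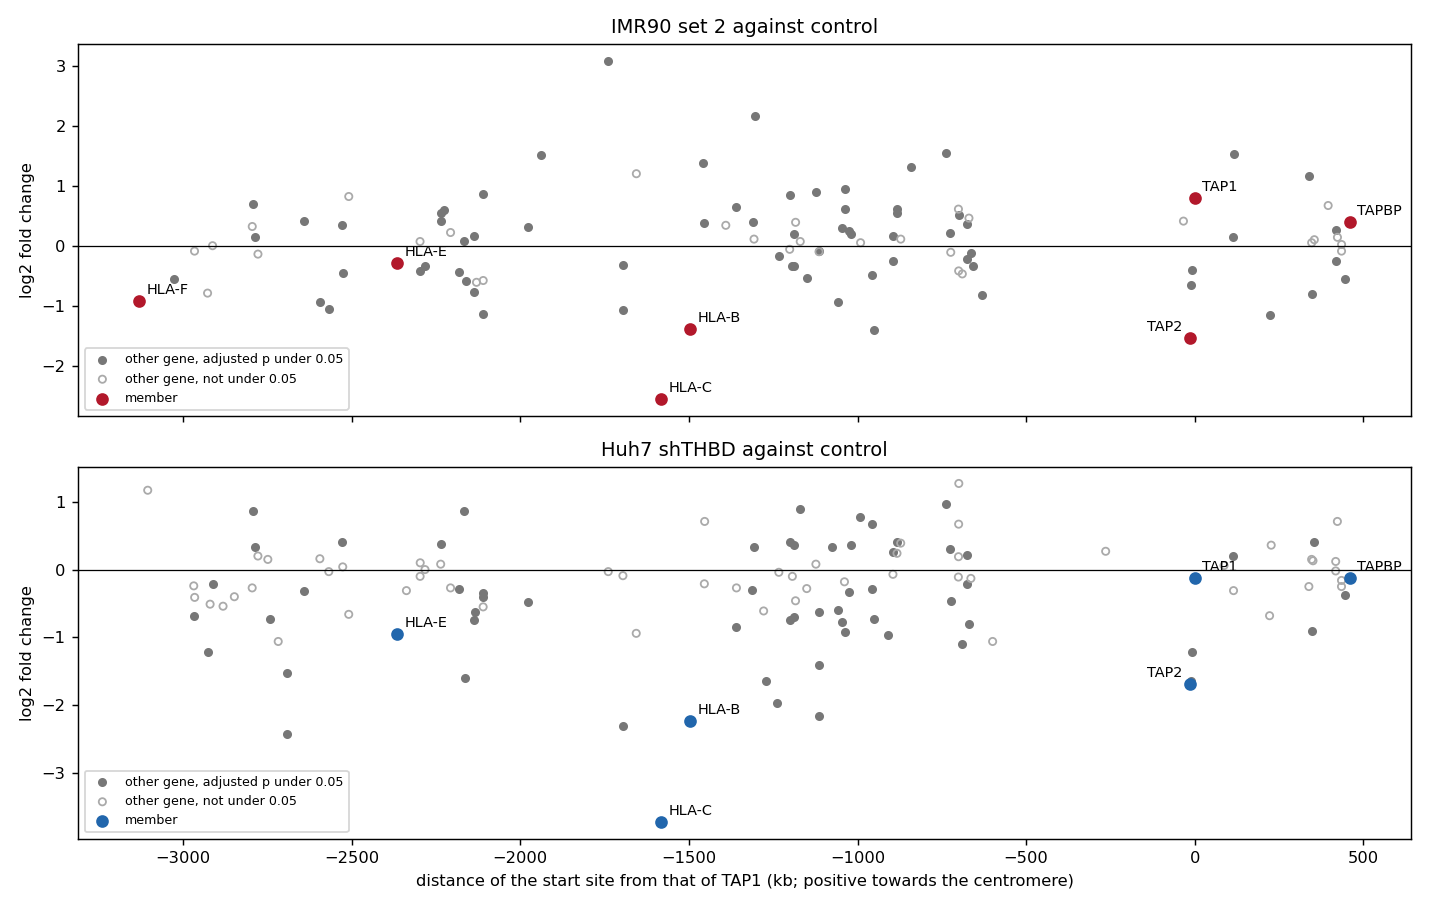
Log2 fold change of genes of the MHC region against the distance of their start site from that of TAP1 (kb), in IMR90 set 2 (top) and Huh7 shTHBD (bottom); coloured points are the members there, filled grey points other genes with adjusted p under 0.05 and open points the rest. HLA-B and HLA-C stand below most neighbours in both panels, and TAP1 at 0.79 stands next to TAP2 at −1.54 in set 2.

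The genes whose levels followed TAP1 most closely over the 9 IMR90 libraries, by Pearson's r on log2 CPM, were IL7R (0.9982), LUM (0.9981), NIPAL3 (0.9968), TRAC and AOX1 (0.9951 each), out of 1894 genes that reached 10 CPM and differed at least 2-fold between group means. For HLA-B they were CMTM3, TNFSF15 and ZC3H15 (0.9996 each), SUSD6 and BUD23 (0.9991 each). Over the 6 Huh7 libraries they were RPL22L1, ELMO2, PRTFDC1, CTSO and RMC1 for TAP1 (0.9786 to 0.9940) and LGALS14, MKI67, COL4A1, DTL and ETV4 for HLA-B (0.9953 to 0.9972), out of 8139 and 101 genes whose groups differed at least as much as the member. These values describe the few group means that the libraries share, and none of the 5 genes for a member was on both lines' lists.

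Cell type markers differed between the groups, and not all in 1 direction. The summed level of 8 fibroblast markers was 6226 to 6317 CPM in the IMR90 control, 4449 to 4557 CPM in libraries labelled set 1 and 12457 to 12630.2 CPM in set 2. Collagen genes and VIM made up most of these sums: COL1A2 rose in set 2 (2.08 ± 0.0198, adjusted p = 8.3e-74), whereas THY1 (−0.95 ± 0.0275, adjusted p = 4.8e-43) and PDGFRB (−0.42 ± 0.0499, adjusted p = 1.1e-11) fell there, and PDGFRB rose in libraries labelled set 1 (0.33 ± 0.0472, adjusted p = 8.9e-09). In Huh7 the fibroblast sum was 1059 to 1107 CPM in the control and 1681 to 1743 CPM in shTHBD. The sum of 8 hepatocyte markers was 6845 to 7100.4 CPM in the Huh7 control and 4791 to 4978 CPM in shTHBD, where 7 of the 8 fell and FGB rose (0.15 ± 0.0484, adjusted p = 0.0110). In IMR90 that sum was 15.9 to 17.9 CPM in the control, 132 to 142 CPM in libraries labelled set 1 and 11.5 to 13.2 CPM in set 2. SERPINA1, which encodes alpha-1 antitrypsin, carried most of it and rose 8.55-fold in libraries labelled set 1 (3.10 ± 0.0576, adjusted p = 2.7e-54), while APOB, TTR and FGB were at 0 in every IMR90 library. Leukocyte markers, the list of 9 that would show immune cells rich in class I, summed to 44.6 to 49.4 CPM in the IMR90 control, 56.0 to 60.0 CPM in libraries labelled set 1 and 122 to 129.5 CPM in set 2. CD4 made up most of this, at 40.4 to 44.6 CPM in the control, 44.0 to 46.5 CPM in libraries labelled set 1 and 120.0 to 128 CPM in set 2. LAPTM5 rose in libraries labelled set 1 (2.70 ± 0.206, adjusted p = 6.6e-19), and CSF1R rose there too (0.52 ± 0.224, adjusted p = 0.0450). In set 2, LAPTM5 (−2.05 ± 0.362, adjusted p = 9.0e-07) and CSF1R (−2.16 ± 0.298, adjusted p = 1.8e-09) fell while the sum was higher. CD3E and HLA-DRA were at 0 in every IMR90 library, and PTPRC, the pan-leukocyte marker, was under 1 CPM. In Huh7 the leukocyte sum was 11.1 to 11.5 CPM in the control and 11.5 to 12.5 CPM in shTHBD. The 6 endothelial markers summed to 26.4 to 28.4 CPM in the IMR90 control, 25.6 to 28.7 CPM in libraries labelled set 1, 9.88 to 11.7 CPM in set 2, and 52.7 to 58.2 CPM against 25.3 to 27.0 CPM in Huh7. The part of these shifts in the class I results was not tested, and in bulk RNA fewer expressing cells cannot be told apart from less RNA per cell.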

How the data were processed

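The authors deposited raw gene counts for 15 RNA-seq libraries. Per the submitters' processing notes, fastp, STAR and featureCounts were used with GRCh38. Per the file headers, the IMR90 table came from featureCounts 2.0.1 with GENCODE 38, counting fragments over exons by gene name without a strand option, and its defaults leave out fragments shared by 2 genes or mapping to several places. What version, annotation and options made the Huh7 table is not given in the sources used here. IMR90 had 59428 and Huh7 59412 genes, of which 404 and 695 older symbols were replaced by RefSeq's current ones.

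Counts of each line were filtered with filterByExpr, scaled by TMM and fitted by edgeR 4.0.16 (quasi-likelihood, R 4.3.3) over 15411 genes in IMR90 and 17474 in Huh7. P-values were adjusted by Benjamini and Hochberg over all of them and called under 0.05. Lines were compared in 1 fit of 16861 shared genes. Variation between replicates beyond counting noise (edgeR's common coefficient) came to 3.13% for IMR90, 8.20% for Huh7 and 5.49% for both. SE was taken as the size of the log2 fold change divided by the root of F, so it is approximate, and 95% intervals span 1.96 SE each way. CPM use library totals. Ratios were compared by exact permutation.

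Named genes were all members, THBD, pathway genes that were called or stood nearest to a member, up to 3 of each other list with at least 10 CPM and the largest called change, and the 5 genes most correlated with TAP1 and with HLA-B. The members and lists were chosen with earlier results of these data known. Some genes of these lists are not reported here. Cell type markers and MHC class II genes were named after their values were seen. Alternatives were DESeq2 1.42.0 (scaling and Wald test), upper-quartile scaling, limma 3.58.1 voom, other filters, a replicate block, summed class I counts and leaving out each library. No label states that replicates came from separate cultures. All p-values therefore reflect only how these samples spread, which may be technical. Which genes were tested rested on the count filters, with no separate floor of counts.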

Additional observations from a re-analysis of the deposited data

Results flagged for a closer look

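The effect of shTHBD set 2 in IMR90 differed from that of shTHBD in Huh7 for 7 members, by the test of the difference itself in the joint edgeR fit of both lines (quasi-likelihood, Benjamini-Hochberg adjusted p under 0.05). On the log2 scale, the IMR90 effect minus the Huh7 effect was 1.13 for HLA-C, 0.82 for HLA-B and 0.63 for HLA-E, all of which fell in both lines and further in Huh7. It was −0.31 for B2M, which rose in both. TAP1 (0.89) rose in IMR90 set 2 and was not called in Huh7, as was TAPBP (0.48). NLRC5 (−2.21) rose in Huh7 and was not called in IMR90. The lines also differ in tissue, in the way senescence was induced and in the count table's annotation, and these cannot be told apart from the effect of the hairpins.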

How the results depend on the processing

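The number of members called changed by at most 1 under every alternative run (48 leave-one-out results, 1 for each comparison in a fit, and 38 others): 4 to 5 in the libraries labelled set 1, 7 to 8 in set 2, 7 to 8 between the sets, 6 to 7 in Huh7 and 7 in the joint fit. Single members kept their direction and their side of the threshold in 414 of 426 leave-one-out results and 339 of 348 others, many of them from the same fits. In 5 cases, none of them called in the main test, the sign changed. NLRC5 between the sets was −0.08 with upper-quartile scaling, and −0.05 to 0.07 with 1 library left out (negative without set 1 replicate 2, and −0.03 without set 2 replicate 3). TAP2 between the lines was −0.11 to 0.37 with 1 library left out (negative without Huh7 shTHBD replicate 3), and the class I counts summed gave 1.00 between the lines where HLA-F alone was −1.19. For the calls gained or lost by TAP1, TAPBP, NLRC5 and HLA-F, given beside their results, the cause was not tested. HLA-C ranged from −2.60 to −2.49 in set 2 and from −3.77 to −3.65 in Huh7, HLA-B from −1.41 to −1.32 and from −2.45 to −2.09. Upper-quartile scaling moved the median of all genes between the sets from −0.03 to −0.13.

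With a replicate block, 5, 7, 8, 6 and 7 members were called in the same order of comparisons, and 8237, 10317, 10675, 8784 and 7211 genes in all, so it changed no count by over 1.5 times. Deviations of libraries that share a number correlated by −0.0259 to 0.0225 in IMR90 and −0.0524 to −0.0158 in Huh7, so the numbers do not pair the samples. Replicate pairs differed by more than sampling noise, with a chi-square over its degrees of freedom of 1.92 to 2.68 (IMR90) and 3.61 to 12.7 (Huh7). Depth limits HLA-F and, in Huh7, THBD.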
